A study of Mus musculus with 12 samples.

Results

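Gene expression was compared between myeloid progenitors of old mice that carry 1 floxed copy of Wt1 (the old hets, 3 libraries) and of old mice with 2 intact copies (the old controls, 3 libraries). These 6 libraries were taken by their age and genotype labels from a series of 12, and the description runs across the genes that passed a filter on low counts, 10604 of the 33924 in the table. By genotype the old controls are Mx+ Wt1+/+ and the old hets Mx+ Wt1fl/+, so every mouse in the comparison carries the Mx allele; both groups have the age and condition "old chronic" and no treatment. The labels do not define "chronic", give no age in weeks, do not say whether or how the floxed copy was recombined, and do not say whether a library came from 1 mouse or from a pool. P-values therefore measure only a spread between libraries, which may be technical. The main test estimates that spread from all 12 libraries of the series. The cells were live Lineage-Sca1-c-Kit+ cells of femur and tibia marrow, called myeloid progenitors, and the libraries were made from total RNA with a Lexogen kit that reads the 3' end of messenger RNA.

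WT1 is a zinc finger transcription factor that can switch target genes on or off and that binds the TET methylcytosine oxidases; it is mutated in a share of acute myeloid leukaemias. Lineage-Sca1-c-Kit+ marrow holds the common myeloid, granulocyte-monocyte and megakaryocyte-erythroid progenitors, which divide quickly and make the first granule proteins of neutrophils, the haem pathway of red cells and the early proteins of megakaryocytes. Stem cells and multipotent progenitors carry Sca1, the product of Ly6a, and are left out by such a gate. "Mx" in mouse crosses usually denotes a Cre recombinase under the interferon-inducible promoter of Mx1, which acts in blood stem cells and also in other interferon-responsive cells.

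The 6 libraries held between 1264603 and 9645502 counts, and 1 of them stood apart. Old control 1 had 9645502 counts, against 2074955 to 3952356 in the other controls and 1264603 to 2303346 in the hets. Of the genes with any count, 34.2% and 33% had 1 to 9 counts in old hets 1 and 3, the shallowest libraries at 1264603 and 1542185 counts. The share was 27.1% to 27.9% in old controls 2 and 3 and old het 2, and 9.6% in old control 1. The defining genes of the gate also went against its label: Ly6a, which encodes Sca1, had 762 counts in old control 1 and 5, 0, 1, 0 and 0 in old controls 2 and 3 and old hets 1, 2 and 3. Cd3e, a T cell gene, had 55 counts there and 0 in each of the others, Cd8a had 126 and 0, and Klrb1c, of natural killer cells, had 102 and 0. Procr, the endothelial protein C receptor of stem cells, had 541 counts there and 0 to 5 elsewhere. Levels are given as CPM, counts per 1000000 counts of the tested genes after TMM scaling, with libraries 1, 2 and 3 of a group in that order. Kit, the c-Kit receptor that the gate selects for, was present in all 6 libraries at 209, 183 and 179 CPM in the controls and 244, 101 and 236 CPM in the hets, and Ly6g, a neutrophil marker, had 0 counts in every one. The library is therefore called old control 1 by its label only, and the list medians and log2 differences below are given with and without it.

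**Figure D1:**
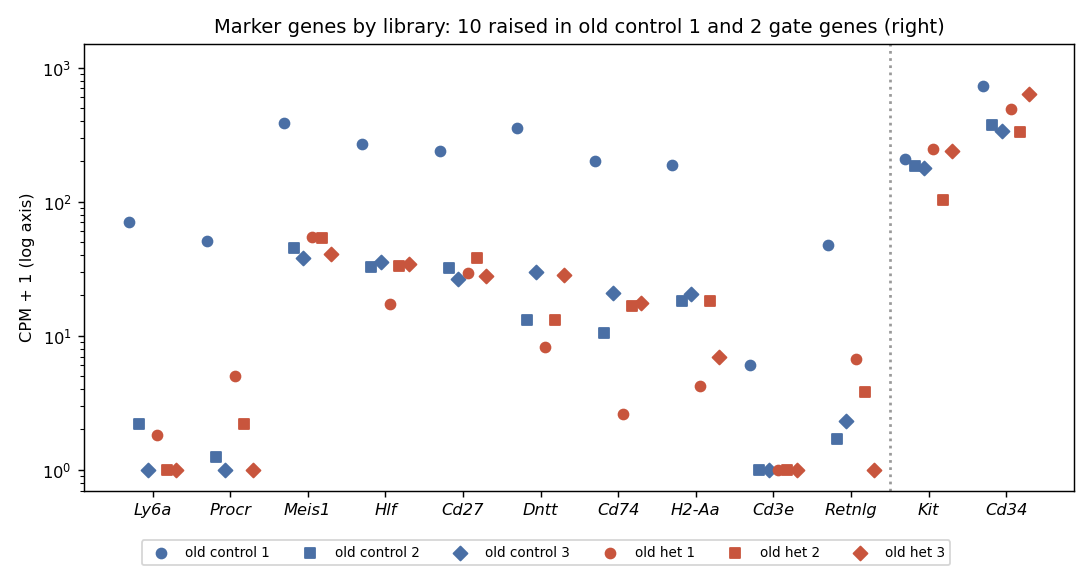
Level of 12 genes in the 6 old libraries, as CPM plus 1 on a log axis; each point is 1 library (blue, old controls; red, old hets). The first 10 genes, markers of stem, lymphoid, antigen-presenting and neutrophil cells chosen for their high level in old control 1, all have their highest point there; Kit and Cd34 overlap between the groups.

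The 3 hets also differed among themselves. Old hets 1 and 3, which often lay apart from old het 2 in the genes below, were the shallowest libraries. The part of depth in that split was not tested. In a principal component analysis of log2 CPM, the first component held 41.4% of the variance and placed old control 1 at -74.9, old het 2 at -24.2, old control 3 at -15.5, old control 2 at -3.95, old het 3 at 49.6 and old het 1 at 68.9. Old het 2 thus lay among the controls on that component. On the third component, with 16.9% of the variance, old hets 1 and 3 lay at opposite ends, at -46.4 and 54.7. By Pearson correlation across genes the closest library to old het 2 was old control 2 (0.934), ahead of old het 3 (0.867) and old het 1 (0.847). Old control 2 was also the closest to old het 3 (0.908, against 0.899 for old het 1). Closeness to old control 2 was thus not particular to old het 2. Genes are not independent replicates. Old het 2 lay outside the range of the 3 controls in 44.3% of the tested genes, old het 1 in 63.1% and old het 3 in 61.4%. Old het 1 also differed in a sex-linked gene: Xist, made from the inactive X chromosome, was at 856 CPM there and at 0 to 1.77 CPM in the other 5 libraries, while Y-linked Ddx3y was at 0 there and at 108 to 155 CPM elsewhere. The labels give no sex, and its part in the other results was not tested.

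**Figure D2:**
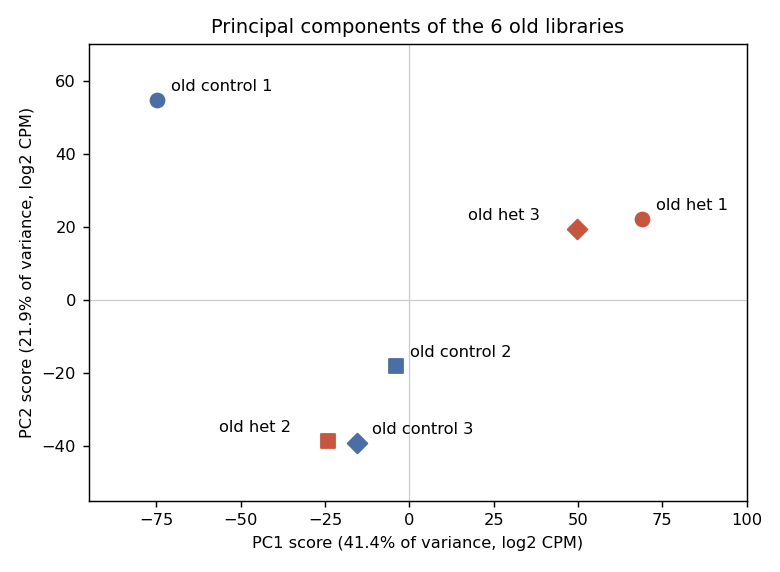
Scores of the 6 old libraries on the first 2 principal components of log2 CPM over the tested genes. Old control 1 stands alone at the upper left, old het 2 sits beside old controls 2 and 3, and old hets 1 and 3 lie together on the right. The third component, not shown, places old hets 1 and 3 at opposite ends.

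No gene passed the test of old het against old control. With edgeR's quasi-likelihood test and Benjamini-Hochberg adjustment, 0% of the 10604 tested genes (0 genes) had an adjusted p of 0.05 or less, and the smallest adjusted p was 0.9993, which is therefore a lower limit for the adjusted p of every gene named here from that fit. At an unadjusted p of 0.05 or less there were 186 genes higher in the hets, 1.75% of those tested, and 194 lower, 1.83%. DESeq2 and limma-voom on the same 12 libraries also called 0 genes, with 496 and 478 at an unadjusted p of 0.05 or less. The 3 het values lay above all 3 control values in 546 genes, 5.15%, and below them in 635, 5.99%. Over all tested genes the median log2 difference, old het minus old control, was -0.047, with 5642 below 0 (53.2%). With total counts in place of TMM scaling that median was -0.16 and the genes at an unadjusted p of 0.05 or less split into 102 higher and 276 lower, so list medians below are read relative to the median of all genes.

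The test left room for sizeable differences. The 95% interval of the log2 difference had a median half-width of 1.18, a 2.27-fold change in either direction, and it narrowed from 2.62 in genes under 10 CPM to 0.71 in genes over 300 CPM. For 1469 genes (13.9%) the whole interval lay within a 2-fold change. They include Atp5b, a subunit of mitochondrial ATP synthase, at -0.19 ± 0.29 (SE, n = 3 per group; 95% interval -0.79 to 0.41) and -0.21 without old control 1, and Lig1, the ligase of DNA replication, at 0.27 ± 0.29 (SE, n = 3 per group; 95% interval -0.33 to 0.87) and 0.23 without it. The common biological coefficient of variation between libraries of a group was 0.535 over the 4 groups of the series.

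Wt1 itself could not be compared. It had 1, 4 and 2 counts in old controls 1, 2 and 3 and 3, 2 and 4 counts in old hets 1, 2 and 3, and did not pass the filter. At the depth of these libraries 3 counts are worth between 0.275 CPM (old control 1) and 2.43 CPM (old het 1). The counts neither separate the genotypes nor check the labels, since a read at the 3' end can also come from a recombined copy if the deletion lies elsewhere. Mx1, whose promoter gives the Mx allele its usual name, had 30, 1 and 1 counts in the controls and 3, 0 and 6 in the hets.

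Among genes with all 3 hets below all 3 controls, Sdcbp had the smallest unadjusted p in the edgeR fit. Sdcbp encodes syntenin, a scaffold with PDZ domains that works in receptor traffic and exosome formation, and stood at 484, 474 and 547 CPM in the controls and 173, 275 and 171 CPM in the hets. The log2 difference was -1.28 ± 0.30 (SE, n = 3 per group; 95% interval -1.90 to -0.66), the controls lay close together, and leaving out old control 1 gave -1.30. F2r encodes the thrombin receptor PAR1 of megakaryocytes and progenitors, and stood at 149, 40.8 and 87.1 CPM in the controls and 24.3, 7.21 and 24.3 CPM in the hets. The F2r difference was -2.34 ± 0.55 (SE, n = 3 per group; 95% interval -3.49 to -1.18), or -1.80 without old control 1. Gar1 encodes a core protein of the H/ACA ribonucleoprotein that guides pseudouridine into ribosomal RNA and is part of telomerase, and stood at 121, 147 and 167 CPM in the controls and 55, 45.7 and 70.9 CPM in the hets. The Gar1 difference was -1.34 ± 0.35 (SE, n = 3 per group; 95% interval -2.07 to -0.61). The lowest control of Gar1 was above the highest het by a wide margin, and its difference was -1.46 without old control 1. Psmb9, a catalytic subunit of the immunoproteasome, which cuts proteins into peptides for MHC class I, stood at 142, 141 and 92.4 CPM in the controls and 22.6, 34.1 and 51.2 CPM in the hets. The Psmb9 difference was -1.79 ± 0.49 (SE, n = 3 per group; 95% interval -2.82 to -0.77), or -1.70 without old control 1. Fos, the AP-1 transcription factor subunit made within minutes of a stimulus, stood at 22.4, 13 and 12.4 CPM in the controls and 2.43, 4.81 and 3.94 CPM in the hets. The Fos difference was -2.06 ± 0.57 (SE, n = 3 per group; 95% interval -3.24 to -0.87), or -1.71 without old control 1, and rests on few counts.

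The other lower genes that the naming rule picked have varied roles. Trim59, of the tripartite motif family, stood at 73.4, 50.5 and 63.7 CPM in controls and 25.1, 12 and 23 CPM in hets. Tspan14, a tetraspanin partner of the protease ADAM10, stood at 172, 149.9 and 143 CPM in controls and 19.4, 77 and 52.5 CPM in hets. The groups were well separated in these 2 genes. Ttyh3, a membrane protein of the tweety family, stood at 232, 132 and 173 CPM in controls and 65.5, 107 and 52.5 CPM in hets. Foxk1, a forkhead repressor, stood at 133, 104 and 171 CPM in controls and 69.5, 38.9 and 69 CPM in hets. The lowest control and the highest het were closer together in Ttyh3 than in Foxk1. Rab38, a small GTPase of lysosome-related organelles, stood at 105, 18.9 and 48.2 CPM in controls and 16.2, 7.21 and 13.1 CPM in hets. Rap1gds1, a chaperone of small GTPases, stood at 49.1, 15.6 and 23.4 CPM in controls and 8.9, 7.62 and 1.97 CPM in hets. Usmg5, a small ATP synthase-associated protein, stood at 28.8, 18.2 and 73 CPM in controls and 10.5, 13.2 and 2.63 CPM in hets. The het values rest on few counts in Rap1gds1 (11, 19 and 3) and in Usmg5 (13, 33 and 4). Rab38 leaned on 1 library, at -2.25 ± 0.63 with all 6 and -1.47 without old control 1. The log2 differences of the other 6 genes without it were -1.52, -1.54, -1.02, -1.23, -1.65 and -2.34, in the order given. All 12 lower genes kept their direction in the 17 alternative settings. They were picked for groups that do not overlap, so that outcome was largely fixed by the choice.

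In several of the 12 genes named for lying higher in all 3 hets, old het 2 was just above the highest control. Ttf2, a factor that releases RNA polymerase II from chromatin at mitosis, stood at 37.2, 71.7 and 48.2 CPM in the controls and 167, 80.2 and 135 CPM in the hets. The Ttf2 difference was 1.28 ± 0.38 (SE, n = 3 per group; 95% interval 0.48 to 2.07), or 1.07 without old control 1. Senp2, a protease that removes SUMO from proteins, stood at 38.8, 77.8 and 61.5 CPM in the controls and 174, 86.2 and 178 CPM in the hets. The Senp2 difference was 1.30 ± 0.40 (SE, n = 3 per group; 95% interval 0.47 to 2.13), or 1.06 without that library. In both genes old hets 1 and 3 lie well above old het 2, which is close to old control 2. Lrrc45, of the linker that holds centrosomes together, stood at 28.8, 50.2 and 50.4 CPM in controls and 100.3, 74.6 and 91.3 CPM in hets. Ctsh, the lysosomal protease cathepsin H, stood at 19.5, 47.4 and 30.1 CPM in controls and 91.4, 68.9 and 69 CPM in hets. In these 2 genes the hets lay nearer to one another. Upf3a, of nonsense-mediated decay, stood at 43.7, 41 and 35.4 CPM in controls and 119, 47.7 and 83.4 CPM in hets, and Kdm3b, a histone demethylase, at 55.7, 54.9 and 35.4 CPM in controls and 125, 62.9 and 93.2 CPM in hets. Lyst, the lysosomal trafficking regulator, stood at 67.7, 157 and 99.9 CPM in controls and 234, 161 and 271 CPM in hets. Cir1, a transcriptional corepressor, Tspan5, a tetraspanin, Plod3, a collagen-modifying hydroxylase, and Trpc2, of the ion channel family of that name, had log2 differences of 1.36 ± 0.48, 1.07 ± 0.39, 1.12 ± 0.43 and 1.16 ± 0.42. Without old control 1 they were 1.18, 0.88, 0.84 and 1.11. Vpreb2, a surrogate light chain of early B cells, had 0, 0 and 1 counts in the controls and 6, 3 and 4 in the hets, and its near-identical copy Vpreb1 makes the count uncertain. The other 11 kept their direction in all 17 settings and Vpreb2 in the 15 that tested it. The choice of genes whose groups do not overlap largely fixed that outcome too.

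**Figure D3:**
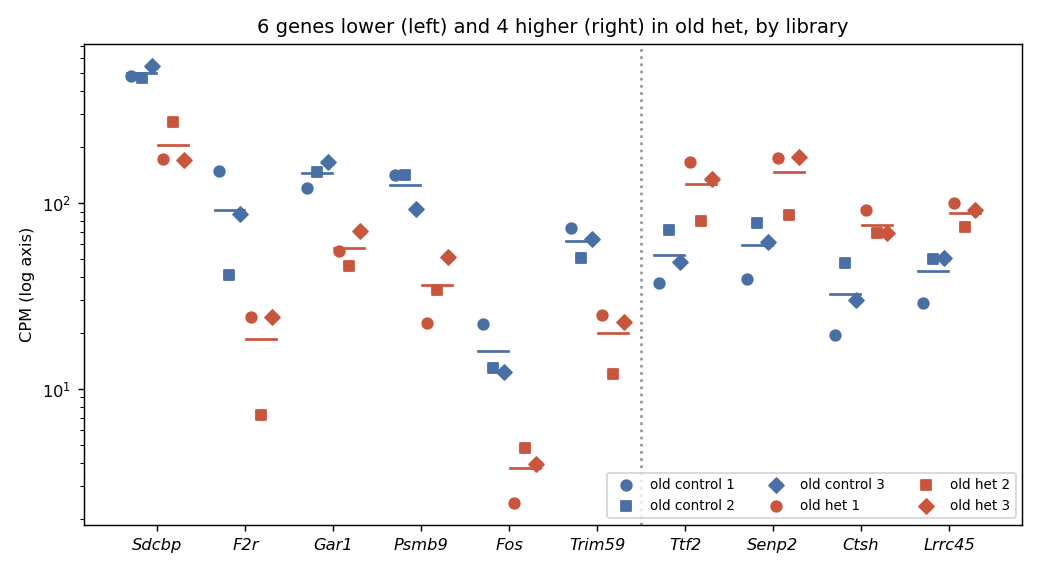
CPM on a log axis in each old library for 6 genes with every het below every control (left) and 4 with every het above every control (right); bars are the means of 3 libraries. Gar1 and Trim59 show wide gaps between the groups, while old het 2 sits near the highest control in Ttf2 and Senp2. No gene shown passed the adjusted threshold.

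Stem and multipotent progenitor genes lay lower in the hets when old control 1 was included and not without it. Of the 30 of 35 list members that passed the filter, 27 of 30 tested members lay below 0 and 3 above, with a median of -0.83, beside 53.2% below 0 and a median of -0.047 over all tested genes. Old control 1 was the highest of the 6 libraries in 29 of 30 members, against 26% of all tested genes, and without it the median was 0.11 with 13 of 30 below 0. The summed level of the whole list was 5550 CPM in old control 1, 2393 and 2421 CPM in the other controls and 2562, 2092 and 2848 CPM in the hets (two-sided exact permutation test, p = 0.7; the smallest p that 3 against 3 allows is 0.1). In sorted bulk RNA, fewer cells of a type and less RNA per cell cannot be told apart. Meis1, a homeobox cofactor of stem cell self-renewal, stood at 388, 44.3 and 37.1 CPM in the controls and 53.4, 52.5 and 40.1 CPM in the hets. Its difference was -1.69 ± 0.62 with all libraries and 0.25 without old control 1. Hlf, a stem cell transcription factor, stood at 270.2, 31.8 and 34.5 CPM in the controls and 16.2, 32.1 and 33.5 CPM in the hets and gave -2.04 ± 0.70 and -0.28.

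A few members of that list also separated the other libraries. Gata2, the zinc finger factor of stem cells and of mast and megakaryocyte precursors, stood at 177, 88.2 and 109 CPM in the controls and 63.1, 39.3 and 77.5 CPM in the hets, with every het below every control, and its difference was -1.07 ± 0.38 (SE, n = 3 per group; 95% interval -1.87 to -0.26), or -0.72 without old control 1. Txnip, the thioredoxin-binding protein that limits glucose uptake, stood at 242, 129.9 and 176 CPM in the controls and 73.6, 79.8 and 70.3 CPM in the hets. The Txnip difference was -1.29 ± 0.43, and it was -1.03 without that library. Flt3, the receptor of lymphoid-primed progenitors, stood at 34.9, 13.7 and 11.5 CPM in the controls and 3.23, 5.61 and 5.25 CPM in the hets, the latter on only 4, 14 and 8 counts. Lmo2, the LIM adaptor of the haematopoietic factor complex, stood at 652, 445 and 467 CPM in the controls and 374, 418 and 386 CPM in the hets. The groups do not overlap in either, but the Lmo2 difference, -0.41 ± 0.32, is small and was -0.22 without old control 1.

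Megakaryocyte genes leaned the same way, in part through old control 1. Among the 24 of 33 that passed, 22 of 24 tested members lay below 0 and 2 above, with a median of -0.73, or -0.32 without old control 1, which was highest in 18 of 24. With old control 1 and old het 1 both left out the median was -0.065. The summed list was 3116, 1677 and 1862 CPM in the controls and 1632, 1681 and 1887 CPM in the hets (two-sided exact permutation test, p = 0.5). At an unadjusted p of 0.05 or less there were 4 lower and 0 higher, beside 1.83% lower and 1.75% higher of all tested genes. The groups were apart in 5 lower and 0 higher, beside 5.99% and 5.15% of all. Cd9, a tetraspanin of platelets, stood at 23.5, 24 and 17.7 CPM in the controls and 5.66, 6.41 and 3.94 CPM in the hets, the latter on only 7, 16 and 6 counts. The 3 controls were alike and all above the hets, a difference of -2.01 ± 0.84 (SE, n = 3 per group; 95% interval -3.76 to -0.27) and -1.95 without old control 1. Sdpr, a caveola protein, was at 259, 75 and 77.4 CPM in controls and 73.6, 68.5 and 72.2 CPM in hets, and its difference went from -0.95 ± 0.43 to -0.093 without that library. Ctla2a, a protease inhibitor, went from -2.12 ± 0.90 to -0.64.

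Genes of MHC class II and dendritic cells had the lowest list median, -1.38 over 16 of 23 members, and it was -0.11 without old control 1, the highest library in 15 of 16. Cd74, the invariant chain that guides class II molecules to the endosome, stood at 202, 9.43 and 19.9 CPM in the controls and 1.62, 15.6 and 16.4 CPM in the hets. H2-Aa, a class II alpha chain, stood at 187, 17.2 and 19.5 CPM in the controls and 3.23, 17.2 and 5.91 CPM in the hets. H2-Eb1, a beta chain, stood at 99.9, 4.72 and 8.4 CPM in the controls and 0, 4.81 and 3.94 CPM in the hets. In all 3 genes old control 1 was many times above every other library, and among the other 5 libraries the hets overlapped the controls. The log2 differences were -2.75 ± 0.93, -3.03 ± 1.03 and -3.62 ± 1.26 with all libraries and -0.36, -1.03 and -1.11 without old control 1. Of the 16 tested members 1, Ciita, had every het below every control, beside 5.99% of all tested genes. Ciita stood at 26.6, 5.66 and 5.31 CPM in the controls and 0.809, 1.2 and 0 CPM in the hets. The het values rest on only 1, 3 and 0 counts.

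Promoters are shown for the antigen presentation genes because H2-Aa and H2-Eb1 share a pattern across libraries and Psmb9, of the class I pathway, does not. Class II promoters carry a Y box that binds the trimeric factor NF-Y; the letters CTGATTGG, searched on both strands, contain the shorter CCAAT motif on the reverse strand and occur in 4.1% of the 32851 RefSeq promoters of the same 300 bases (GRCm38.p6, 250 before to 50 after the start). The letters occur once in each of the 3 promoters, in capitals below, and end 43 bases before the start of H2-Aa (chr17:34287774-34288073, minus strand), 54 before that of H2-Eb1 (chr17:34305617-34305916, plus strand) and 3 before that of Psmb9 (chr17:34187281-34187580, minus strand).
H2-Aa: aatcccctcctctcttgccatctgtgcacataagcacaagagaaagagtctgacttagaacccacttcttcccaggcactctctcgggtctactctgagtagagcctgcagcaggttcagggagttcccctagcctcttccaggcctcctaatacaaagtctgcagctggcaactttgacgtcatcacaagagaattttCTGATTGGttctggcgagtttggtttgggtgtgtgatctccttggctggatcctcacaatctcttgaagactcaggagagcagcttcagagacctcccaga
H2-Eb1: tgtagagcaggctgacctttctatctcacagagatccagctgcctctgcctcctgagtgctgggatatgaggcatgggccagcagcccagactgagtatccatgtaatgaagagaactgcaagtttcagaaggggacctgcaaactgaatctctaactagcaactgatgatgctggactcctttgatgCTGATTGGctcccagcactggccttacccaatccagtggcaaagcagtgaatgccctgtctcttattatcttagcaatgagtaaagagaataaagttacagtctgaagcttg
Psmb9: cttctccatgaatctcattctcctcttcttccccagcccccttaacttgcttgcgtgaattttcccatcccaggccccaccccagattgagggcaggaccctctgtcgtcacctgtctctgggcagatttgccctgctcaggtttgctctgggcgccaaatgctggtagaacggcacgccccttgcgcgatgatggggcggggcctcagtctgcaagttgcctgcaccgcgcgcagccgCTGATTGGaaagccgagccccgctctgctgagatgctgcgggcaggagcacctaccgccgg
The 3 genes lie in the MHC region of chromosome 17 and share these letters, at different distances from the start. Psmb9 was at 142, 141 and 92.4 CPM in the 3 controls, with no excess in old control 1. The part of the letters or of the region in these levels was not tested. A letter match is a description and not a bound site. The WT1-type letters GCGGGGGCG, found in 2.91% of all promoters, were in 2 of the 7 matched promoters of the 12 lower genes (Trim59 and Tspan14) and in 0 of the 10 matched of the 12 higher genes. The letters GCGTGGGAG, in 0.472% of all promoters, were in 0 of the 7 and 0 of the 10, and the shorter GCGTGGG, in 5.04%, was in 1 of the 7 (F2r) and 0 of the 10.

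Among lymphoid genes, Dntt was highest in old control 1, and Ebf1 and Pax5 were highest in old hets 1 and 3. Dntt, the polymerase that adds bases to rearranging antigen receptors, stood at 353, 12 and 28.7 CPM in the controls and 7.28, 12 and 27.6 CPM in the hets. The Dntt difference was -3.07 ± 0.98, and it was -0.37 without old control 1. Ebf1, an early B cell factor, stood at 6.14, 4.95 and 6.19 CPM in the controls and 21, 5.61 and 19 CPM in the hets. Pax5, which commits cells to the B lineage, stood at 1.65, 1.18 and 2.65 CPM in the controls and 4.85, 2.0 and 11.2 CPM in the hets. Old hets 1 and 3 were above every control in both, and old het 2 was not. The Pax5 values of the hets rest on few counts (6, 5 and 17). Over the 12 of 23 B lymphoid genes that passed, 8 of 12 tested members lay below 0 and 4 above, with a median of -0.28 and of 0.20 without old control 1. Only 4 of 19 T and natural killer cell genes passed, 3 of them highest in old control 1; the whole list summed to 122 CPM there and to between 12.02 and 32.2 CPM in the other 5 libraries. Stroma and endothelium genes summed to between 189 and 254 CPM in the controls and between 168 and 274 CPM in the hets.

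Interferon response genes were lower in the hets in 28 of 34 tested members, with a median of -0.50 that was -0.09 without old control 1, the highest library in 24 of 34. Trim30a, an inhibitor of inflammatory signalling, stood at 88.8, 40.3 and 63.7 CPM in the controls and 38.8, 20.8 and 33.5 CPM in the hets. Ifi47, an immunity-related GTPase, stood at 122, 43.1 and 33.2 CPM in the controls and 21, 25.3 and 12.5 CPM in the hets. Every het was below every control in both, with log2 differences of -1.06 ± 0.45 and -1.75 ± 0.72, or -0.75 and -0.96 without old control 1. Ly6e, a surface protein with a lipid anchor, stood at 616, 225 and 223 CPM in the controls and 120.5, 272 and 109.7 CPM in the hets, so old het 2 was above old controls 2 and 3. Of the class I presentation and immunoproteasome list, 14 of 22 tested members lay below 0 and 8 above, with a median of -0.21 and 0.085 without old control 1. Psmb8, the partner subunit of Psmb9, stood at 508, 227 and 224 CPM in the controls and 137, 247 and 159 CPM in the hets. Unlike Psmb9, its groups overlapped.

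Immediate early genes, which cells switch on within minutes of a stimulus or of handling, had 22 of 27 tested members below 0 and a median of -0.45, which was -0.062 without old control 1. Egr1, a zinc finger factor whose sites resemble those of WT1, stood at 116, 11.6 and 1.77 CPM in the controls and 12.9, 7.62 and 14.4 CPM in the hets. Its difference was -1.92 ± 1.07 with all libraries and 0.76 without old control 1, so its sign rests on that library. Ier3, a stress-induced survival gene, stood at 124, 33.5 and 17.2 CPM in controls and 13.7, 30.1 and 26.9 CPM in hets. Of the 27 members Fos was the 1 with separate groups, beside 11.1% of all tested genes, and its values are given above. In the list of NF-kB and inflammatory genes the median was -0.43, or -0.071 without old control 1, and Sod2, the mitochondrial superoxide dismutase, stood at 109.6, 98.3 and 108 CPM in the controls and 55.8, 77.4 and 27.6 CPM in the hets. Every Sod2 value of the hets was below every control, with a log2 difference of -0.97 ± 0.39, or -0.94 without old control 1.

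**Figure D4:**
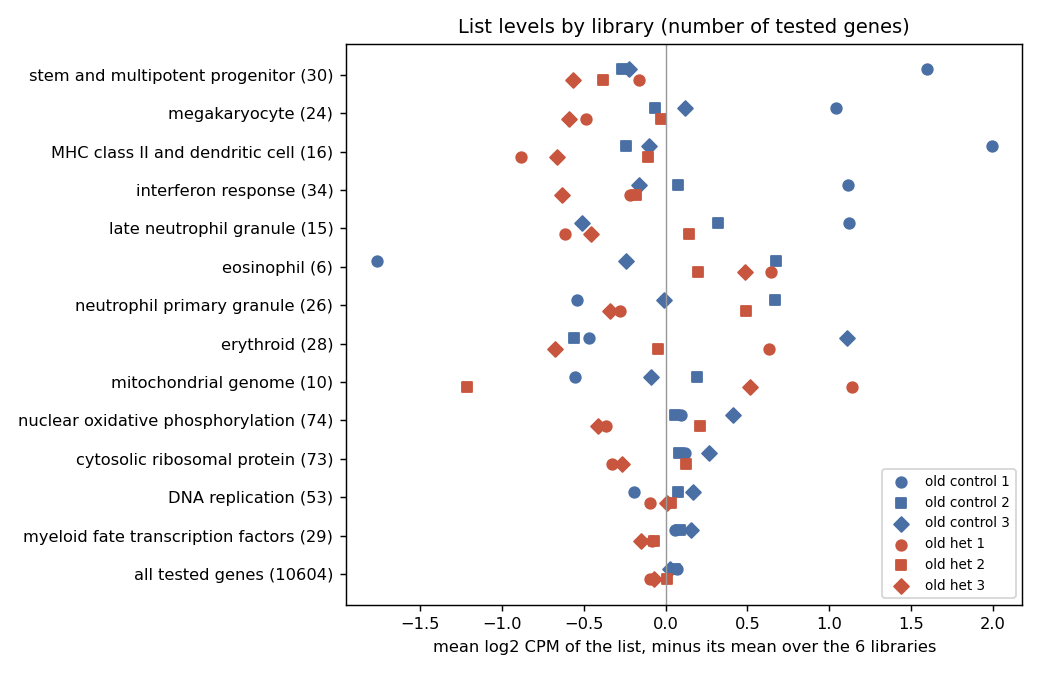
Mean log2 CPM of 13 gene lists and of all tested genes in each library, minus the mean of the 6 libraries; blue, old controls; red, old hets; the number of tested genes is in brackets. Old control 1 (blue circle) stands alone at the top of the stem, megakaryocyte, MHC class II, interferon and late neutrophil lists and at the bottom of the eosinophil list, and old het 2 (red square) stands apart from old hets 1 and 3 in the mitochondrial lists.

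The monocyte list had a median near 0, while F13a1, Zeb2 and Cybb were highest in old hets 1 and 3. F13a1, a coagulation factor subunit of monocytes, stood at 143, 504 and 368 CPM in the controls and 1097, 329.9 and 957 CPM in the hets. The F13a1 difference was 1.23 ± 0.43 (SE, n = 3 per group; 95% interval 0.33 to 2.14) and 0.86 without old control 1. Zeb2, a repressor needed for monocyte and dendritic cell fate, stood at 247, 432 and 337 CPM in the controls and 704, 319.9 and 797 CPM in the hets. Cybb, of the oxidase that makes superoxide, stood at 90.2, 228 and 146 CPM in the controls and 301, 177 and 250.2 CPM in the hets. In these 3 genes old hets 1 and 3 were above every control and old het 2 was below old control 2. Fcgr3, an Fc receptor of granulocyte-monocyte progenitors, stood at 77.1, 127 and 81.4 CPM in the controls and 157, 196 and 108 CPM in the hets, where the hets overlapped the controls through old het 3. Of the monocyte list 7 of 20 tested members lay below 0 and 13 above, with a median of 0.078, or -0.026 with 11 of 20 below 0 without old control 1; the summed list was 1956, 3489 and 2613 CPM in the controls and 3784, 3108 and 3918 CPM in the hets (two-sided exact permutation test, p = 0.2; adjusted over 21 shares and sums, 0.933).

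The groups overlapped in each neutrophil, eosinophil and basophil gene described here. Of the 26 of 26 primary granule genes, 15 of 26 tested members lay below 0 and 11 above, with a median of -0.072, or -0.27 with 20 of 26 below 0 without old control 1. Ms4a3, a membrane protein of granulocyte-monocyte progenitors, stood at 343, 2157 and 1692 CPM in the controls and 3326, 1491 and 2673 CPM in the hets. Gfi1, the repressor that sets neutrophil fate, stood at 59, 177 and 104 CPM in the controls and 27.5, 138 and 38.1 CPM in the hets. Ctsg, the granule protease cathepsin G, stood at 692, 1134 and 519 CPM in the controls and 601, 797 and 301 CPM in the hets. Ms4a3 was lowest in old control 1 and Gfi1 lowest in old hets 1 and 3, and the groups overlapped in all 3 genes. The late granule list had a median of -0.72 that was -0.16 without old control 1; Lcn2, lipocalin 2, stood at 107, 35.4 and 13.7 CPM in controls and 9.7, 22 and 25.6 CPM in hets. Itgam, the integrin chain CD11b, stood at 51.4, 113 and 42 CPM in controls and 157, 95.4 and 135 CPM in hets. All 6 eosinophil genes that passed, of 11, were above 0, with a median of 0.72 and of 0.28 without old control 1. Prg2, the eosinophil major basic protein, stood at 134, 861 and 574 CPM in the controls and 573, 750.3 and 967 CPM in the hets, low in old control 1 and overlapping elsewhere, and Epx, eosinophil peroxidase, at 1.37, 28.1 and 11.9 CPM in controls and 27.5, 12.8 and 69.6 CPM in hets. Mcpt8, a basophil protease, stood at 40.2, 96 and 94.6 CPM in controls and 160.1, 61.3 and 153 CPM in hets, and the basophil and mast cell list had a median of -0.02, or -0.26 without old control 1.

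Erythroid genes were set by single libraries. The median of 28 of 34 members was -0.19, and it ranged from -0.45 to 0.40 as each old library was left out, the highest value being that without old control 3. It was -0.36 without old control 1. Car1, the carbonic anhydrase of early red cell progenitors, stood at 157, 149.9 and 697 CPM in the controls and 199, 256 and 111 CPM in the hets. Old control 3 was several times above the others, and without it the difference turned from -0.82 ± 0.54 to 0.30, and it was -1.16 without old control 1. Mt2, a metallothionein, stood at 62.5, 67.2 and 242 CPM in controls and 72.8, 96.6 and 14.4 CPM in hets. In the list of haem synthesis and iron, 15 of 24 tested members lay below 0 and 9 above, with a median of -0.11, 0.34 without old control 3 and -0.30 without old control 1. Urod, the decarboxylase that makes coproporphyrinogen, stood at 64.1, 29.9 and 63.7 CPM in the controls and 22.6, 34.1 and 14.4 CPM in the hets. Fth1, the ferritin heavy chain, stood at 178, 79.2 and 233 CPM in the controls and 85.7, 103 and 86 CPM in the hets. Old control 2 overlapped the hets in both.

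Transcripts of the mitochondrial genome and of nuclear genes for the same respiratory chain leaned in opposite directions. Old hets 1 and 3 lay apart from old het 2 in both, and old control 3 also weighed on the nuclear genes. Of 10 tested mitochondrial genome transcripts, 9 were above 0, with a median of 0.57, or 0.47 without old control 1. The median was 0.19 without old het 1, 0.97 without old het 2 and 0.038 with old control 1 and old het 1 both left out. Mitochondrial ribosomal RNA made up 1.70%, 2.38% and 2.13% of counts in the controls and 4.78%, 1.40% and 4.75% in the hets (two-sided exact permutation test, p = 0.4). Mitochondrial messenger RNA made up 0.862%, 1.08% and 0.883% of counts in the controls and 1.94%, 0.529% and 1.30% in the hets (two-sided exact permutation test, p = 0.6). In both shares old hets 1 and 3 were thus above every control and old het 2 below every control. mt-Rnr1 and mt-Rnr2, the 2 ribosomal RNAs, had log2 differences of 0.92 ± 0.40 and 0.98 ± 0.46, or 0.72 and 0.87 without old control 1. Of the nuclear oxidative phosphorylation genes, 54 of 74 tested members lay below 0 and 20 above, with a median of -0.30, and -0.28 without old control 1; at an unadjusted p of 0.05 or less there were 3 lower and 0 higher of the 74, beside 1.83% lower and 1.75% higher of all tested genes. Ndufa1, a subunit of complex I, stood at 84.5, 93.4 and 84.9 CPM in the controls and 40.4, 32.5 and 3.94 CPM in the hets. Every Ndufa1 value of the hets was below every control, with a log2 difference of -1.77 ± 0.76, or -1.80 without old control 1. Atp5g3, of the ATP synthase ring, stood at 906, 1044 and 1417 CPM in the controls and 337, 997 and 354 CPM in the hets. Cox8a, of cytochrome oxidase, stood at 187, 111 and 113 CPM in the controls and 15.4, 131 and 17.1 CPM in the hets. In both, old hets 1 and 3 were low and old het 2 was within the controls. The median of this list was -0.57 without old het 2 and -0.12 without old het 1 or old het 3. It was -0.15 without old control 3, the highest library in 23 of 74 members, against 14.6% of all tested genes.

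Cytosolic ribosomal protein genes followed the same split between hets. Among 73 of 80 members, 50 of 73 tested members lay below 0 and 23 above, with a median of -0.26 and of -0.22 without old control 1, and the groups were apart in 9 lower and 1 higher, beside 5.99% lower and 5.15% higher of all tested genes. Their share of all counts was 4.39%, 3.65% and 3.90% in the controls and 3.17%, 3.65% and 3.36% in the hets (two-sided exact permutation test, p = 0.2). Rps2 stood at 76.6, 70.7 and 124 CPM in the controls and 25.1, 51.3 and 35.5 CPM in the hets and Rpl22, which also binds RNA outside the ribosome, at 852, 828 and 848 CPM in the controls and 323, 738 and 408 CPM in the hets. The hets were below the controls in each, with log2 differences of -1.26 ± 0.47 and -0.78 ± 0.35, or -1.37 and -0.77 without old control 1. Rpsa, a small subunit protein also known as a laminin receptor, was at 189.7, 203 and 189.7 CPM in the controls and 381, 179.6 and 398 CPM in the hets, above every control in old hets 1 and 3 and below them in old het 2. Many ribosomal protein genes have processed copies that can take their reads.

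Genes that build ribosomes and start translation were mixed. In the small nucleolar ribonucleoprotein and nucleolar list 10 of 38 tested members had an interval within a 2-fold change, beside 13.9% of all tested genes. Of the 38 list members 20 lay below 0 and 18 above, with a median of -0.031 or -0.042 without old control 1. Gar1, given above, was the lowest, while Nop56, a box C/D core protein, stood at 127, 124 and 132 CPM in the controls and 248, 155 and 192 CPM in the hets, with every het above every control by 0.63 ± 0.35 and the same to 2 decimals without old control 1. Wdr12, of the complex that matures the large subunit, stood at 149, 258 and 273 CPM in controls and 522, 252 and 462 CPM in hets, and its partner Pes1 at 142, 158 and 181 CPM in controls and 193, 169.9 and 211 CPM in hets. Of the translation factors, 17 of 38 tested members lay below 0 and 21 above, with a median of 0.14, or 0.15 without old control 1. Eif5a, the factor that carries hypusine, stood at 193, 220.4 and 295 CPM in the controls and 118, 183 and 112 CPM in the hets. Every Eif5a value of the hets was below every control, with a log2 difference of -0.77 ± 0.31, or -0.90 without old control 1. Eif5, which triggers GTP hydrolysis at the start codon, stood at 241, 415 and 448 CPM in controls and 761, 355 and 821 CPM in hets. The constitutive proteasome list had a median of 0.04, or -0.069 without old control 1. Psmc2 and Psmd11, of the regulatory particle, had differences of 0.98 ± 0.44 and 0.82 ± 0.38, or 0.70 and 0.61 without it.

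The replication and mitosis lists had medians near that of all genes. For DNA replication 27 of 53 tested members lay below 0 and 26 above, with a median of -0.0082, and for mitosis and the kinetochore 26 of 47 tested members lay below 0 and 21 above, with a median of -0.11. Without old control 1 these medians were -0.10 and -0.20. Slbp, a binder of histone messenger RNA, stood at 20, 32.3 and 30.1 CPM in the controls and 115, 27.7 and 113 CPM in the hets. The Slbp difference was 1.63 ± 0.44 (SE, n = 3 per group; 95% interval 0.70 to 2.56), or 1.43 without old control 1; old hets 1 and 3 were above every control and old het 2 was within them. Dut, which keeps uracil out of DNA, had the same split at 409.8, 708 and 807 CPM in the controls and 1966, 576 and 1462 CPM in the hets. Mcm4, of the replicative helicase, stood at 111, 162 and 261 CPM in controls and 86.5, 128 and 86.7 CPM in hets. Cdk1, the mitotic kinase, stood at 264, 215 and 306 CPM in controls and 93, 252 and 75.5 CPM in hets, with old het 2 the only het among the controls. Lig1 stood at 1564, 1707 and 1699.8 CPM in controls and 2113, 1979.6 and 1892 CPM in hets, and here the hets were all above the controls by a small amount. The D cyclins, their kinases and inhibitors had a median of -0.29, or -0.10 without old control 1, with 0 of 12 members at an unadjusted p of 0.05 or less, beside 3.58% of all tested genes. Core histone genes had a median of 0.064, or -0.021 without it; H3f3b, a replication-independent histone H3, stood at 467, 543 and 602 CPM in controls and 387, 427 and 407 CPM in hets and the linker histone Hist1h1e at 35.1, 73.6 and 53.1 CPM in controls and 130.2, 96.6 and 84.1 CPM in hets.

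Of the 21 tested members of the p53 response list, 3 had every het above every control and 1, Trp53inp1, every het below, beside 5.15% and 5.99% of all tested genes. Trp53, which encodes p53, stood at 161, 216 and 205 CPM in the controls and 302, 294 and 347 CPM in the hets. The Trp53 difference was 0.69 ± 0.36 (SE, n = 3 per group; 95% interval -0.065 to 1.45), or 0.58 without old control 1. Mdm4, an inhibitor of p53, stood at 22.7, 33.9 and 13.3 CPM in the controls and 62.3, 34.1 and 55.2 CPM in the hets. Bax, which opens the mitochondrial outer membrane, stood at 43.3, 60.4 and 54.8 CPM in the controls and 88.1, 66.5 and 99.2 CPM in the hets. These differences were 1.10 ± 0.60 and 0.68 ± 0.37, or 1.08 and 0.55 without that library. Over the whole p53 response list 14 of 21 tested members lay below 0 and 7 above, with a median of -0.34, or -0.24 without old control 1. Bad, a BH3-only protein, stood at 134, 212 and 206 CPM in controls and 441, 202 and 311 CPM in hets. Mcl1, a survival protein of progenitors, stood at 137, 111 and 167 CPM in controls and 97, 125 and 105 CPM in hets. The BCL2 family had a median of 0.038, or 0.14 without old control 1.

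Stress and metabolism lists held no common direction. The unfolded protein response had a median of 0.067 and -0.15 without old control 1, heat shock 0.05 and -0.021, glycolysis and hypoxia -0.15 and -0.047, and cholesterol synthesis -0.29 and -0.25. Hsp90b1, a chaperone of the endoplasmic reticulum, stood at 475, 1352 and 1219 CPM in the controls and 2390.5, 1126 and 2101 CPM in the hets, low in old control 1 and high in old hets 1 and 3. Vegfa, a growth factor induced by low oxygen and a described WT1 target, stood at 11.3, 41.7 and 23 CPM in the controls and 43.7, 47.7 and 69.6 CPM in the hets. Every Vegfa value of the hets was above every control, by 1.09 ± 0.46 (SE, n = 3 per group; 95% interval 0.12 to 2.06), or 0.72 without old control 1.

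Genes tied to WT1 and to myeloid leukaemia had medians near that of all genes. Of the described WT1 targets and partners 11 of 18 tested members lay below 0 and 7 above, with a median of -0.19 and of 0.14 without old control 1. Of the 18, 1, Vegfa, was at an unadjusted p of 0.05 or less, beside 3.58% of all tested genes. In the list of DNA methylation and chromatin regulators 12 of 33 tested members lay below 0 and 21 above, with a median of 0.13, or 0.07 without old control 1. Of these, 15 of the 33 had an interval within a 2-fold change, beside 13.9% of all genes. None of the 33 was at an unadjusted p of 0.05 or less, beside 3.58% of all tested genes. Ezh2, the methyltransferase of Polycomb, stood at 424, 469 and 374 CPM in controls and 639.7, 435 and 676 CPM in hets, and its partner Suz12 at 107, 195 and 209.6 CPM in controls and 295, 165 and 307 CPM in hets. Dnmt3b, a DNA methyltransferase, stood at 108, 51.9 and 57.5 CPM in the controls and 36.4, 44.1 and 42.7 CPM in the hets. Every Dnmt3b value of the hets was below every control, with a log2 difference of -0.82 ± 0.42, or -0.41 without old control 1.

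The HOXA, MEIS and PBX list had a median of -0.56 that was 0.035 without old control 1, the highest library in 10 of 13. Pbx3, a cofactor of HOXA proteins, stood at 69.3, 31.4 and 77.8 CPM in the controls and 23.5, 36.1 and 21 CPM in the hets, where old control 2 overlapped the hets, and Dot1l, the histone H3 methyltransferase that leukaemias with MLL fusions need, stood at 194, 157 and 172 CPM in controls and 107, 174 and 129 CPM in hets. Of 29 tested myeloid fate transcription factors 1, Gata2, was at an unadjusted p of 0.05 or less, beside 3.58% of all tested genes. These factors had a median of -0.20, or -0.22 without old control 1, with 18 of 29 below 0. Ikzf1, Ikaros, was among the most narrowly measured of them, at 409.9, 487 and 514 CPM in controls and 586, 508 and 573 CPM in hets and a difference of 0.24 ± 0.28 (SE, n = 3 per group; 95% interval -0.35 to 0.83), or 0.15 without that library. Receptors of myeloid cytokines had a median of 0.026, or 0.081 without it; Ifngr1, a chain of the interferon gamma receptor, stood at 289, 892 and 773 CPM in controls and 1196, 801 and 1354 CPM in hets.

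**Figure D5:**
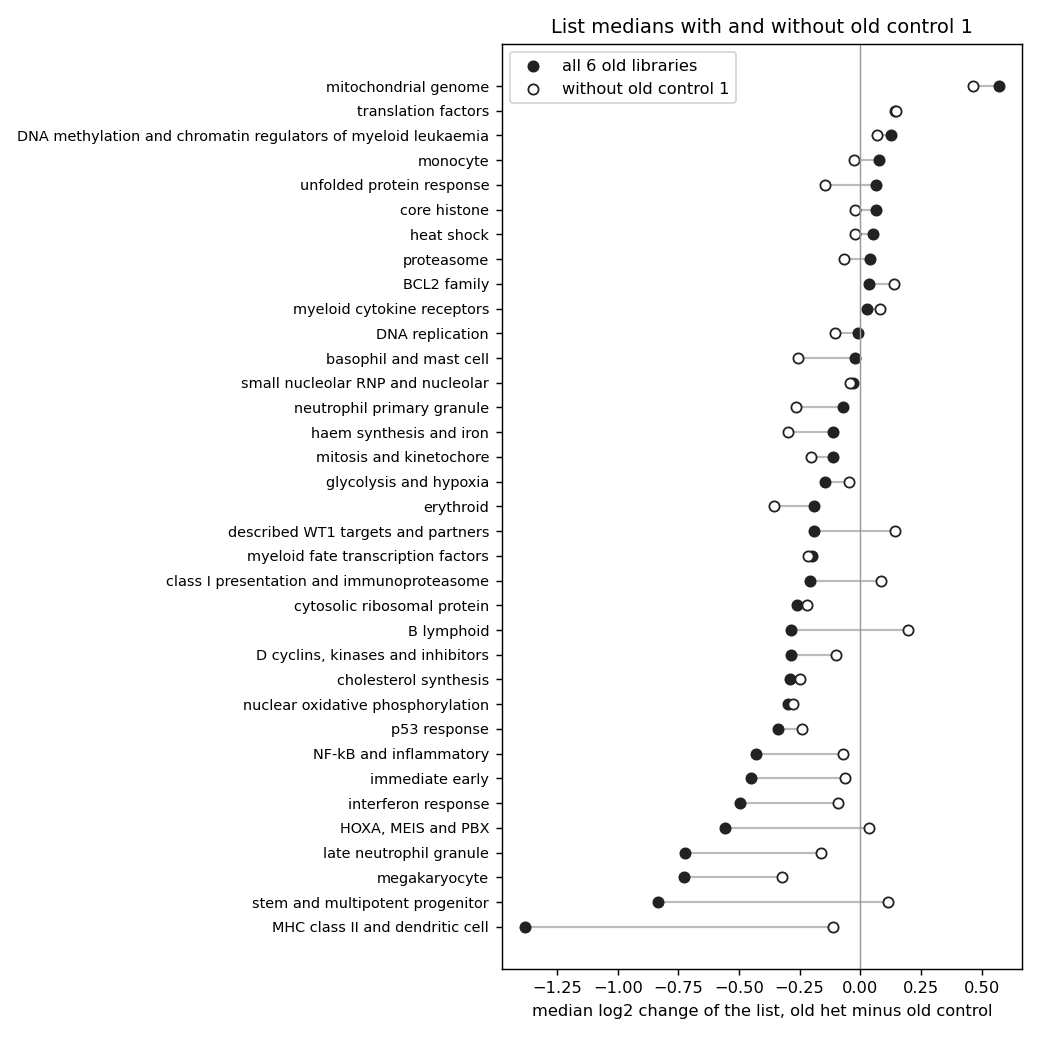
Median log2 difference, old het minus old control, of each list with at least 10 tested genes, with all 6 old libraries (filled) and without old control 1 (open). The MHC class II, stem, late neutrophil, HOXA, interferon and immediate early lists move close to 0 without that library, while the ribosomal protein, oxidative phosphorylation and mitochondrial genome lists stay near their place.

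The number of calls depended on how the libraries were weighted. With limma-voom and a quality weight for each library, 119 genes had an adjusted p of 0.05 or less, 32 higher and 87 lower in the hets, where edgeR called 0. The weights were 0.267 for old control 1 and 0.527 for old het 2, against 1.82, 2.08, 2.51 and 2.93 for old controls 2 and 3 and old hets 1 and 3, so these calls compare mainly the last 4 libraries. The groups were apart over all 6 libraries in 26 of the 119, beside 11.1% of all tested genes. The lower calls include 9 cytosolic ribosomal protein genes, 5 oxidative phosphorylation genes and 4 mitotic genes, beside 0.82% of all tested genes called lower, lists in which old het 2 was with the controls. Sdcbp and Atp5g3 had the smallest adjusted p there, 0.001919 each. Without old het 2, edgeR gave 1126 genes at an unadjusted p of 0.05 or less and 0 past the adjusted threshold, and without old control 1 it gave 149 and 0. Without a filter on low counts 11 genes passed, among them Cd74, Dntt and H2-Aa, high in old control 1, and Xist, high in old het 1. Leaving out old control 2 gave 1 call, Loxl2, a lysyl oxidase, at 0, 11.6 and 0.442 CPM in the controls and 59.8, 11.2 and 15.8 CPM in the hets. Old control 2 was the only control with a level near the hets.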

How the data were processed

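RNA of sorted marrow progenitors was measured in 12 libraries in 4 groups of 3 (old chronic and young acute, control and het), of which the 6 old ones are compared here. The authors deposited 1 table of raw read counts per gene for all 12 libraries; per the submitters' processing notes reads were aligned with STAR 2.4 to mm9 and counted with HTSeq 0.6.1, and DESeq2 was also used; whether counting used strand is not given in the sources. Every column was matched to a sample by its group name and number. The libraries are numbered 1 to 3 within a group only to name them.

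Counts were tested with edgeR 4.0.16 in R 4.3.3: filterByExpr (minimum count 10, total 15), TMM scaling, and the quasi-likelihood F test of old het minus old control in a model of 4 groups on 12 libraries, with Benjamini-Hochberg adjustment over 10604 genes and a threshold of 0.05. The SE is the log2 difference divided by the square root of F, and intervals are at 95%. CPM is per 1000000 TMM-scaled counts of tested genes. CPM of a 3' end library does not depend on gene length, but levels of different genes are not compared. Depth was 1264603 to 9645502 counts per old library, and 3 counts were worth 0.275 to 2.43 CPM. Shares and summed lists were compared by two-sided exact permutation tests, adjusted over 21 measures. Alternatives were DESeq2 1.42.0, limma 3.58.1 (voom, with and without quality weights), other scalings and filters, the old libraries alone, and leaving out each old library. The fit was checked on simulated counts.

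Named genes are Wt1; the 12 higher and 12 lower genes with the smallest unadjusted p among those whose groups do not overlap, without predicted, mitochondrial, small RNA and sex-linked genes; from each of 39 lists up to 4 members by unadjusted p and the one with the narrowest interval; genes past the threshold in any setting; and the 5 most counted genes. Not every gene so picked is printed. Ciita is shown in addition, as the 1 tested member of its list whose groups do not overlap. Ly6a, Cd3e, Cd8a, Klrb1c, Procr, Kit, Cd34, Mx1 and the other gate genes are shown to check the sort, some of them chosen for their level in old control 1. The comparison, the lists and the rule were chosen with earlier results of these data known. Promoters come from RefSeq (GRCm38.p6), a different build from that of the counts, and were matched by symbol; no coordinates were converted.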

Additional observations from a re-analysis of the deposited data

Results flagged for a closer look

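The het difference of Slbp, the histone stem-loop binding protein, was not the same in the old and in the young libraries. By name the old libraries are old chronic and the young ones young acute, so age and condition cannot be told apart. In the edgeR fit of all 12 libraries the log2 difference, het minus control, was 1.63 ± 0.44 (SE, n = 3 per group) in the old libraries and -3.05 ± 0.46 in the young. The old minus young difference was 4.68, with an adjusted p of 0.003767 over all tested genes in the same edgeR test. In the old libraries Slbp stood at 19.96, 32.3 and 30.1 CPM in the controls and 115, 27.7 and 113 CPM in the hets, so 2 of the 3 old hets were above every old control and old het 2 was within them.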

How the results depend on the processing

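A set of 113 tested genes, not all of them printed, was followed through the alternative settings. Of these, 106 kept their direction in every setting that tested them (all 17 settings for 95 genes, 15 or 16 for the other 11). The other 7 gave 11 values of the opposite sign. Many were picked for a small unadjusted p or for groups that do not overlap, so kept directions were in part fixed by that choice. As each old library was left out in turn, Meis1 ranged from -2.15 to 0.25 and Egr1 from -2.47 to 0.76, both highest without old control 1. Car1 ranged from -1.17 to 0.30, highest without old control 3, and Xist from -4.76 without old het 1 to 8.88. With old control 1 and old het 1 both left out, Meis1 was at 0.18, Cd74 at 0.14, H2-Ab1 at 0.031, Ier3 at 0.16, Egr1 at 0.68 and Xist at -5.09, and with quality weights Egr1 was at 0.49. The number of genes past the adjusted threshold was 0 except for 119 with limma-voom quality weights, 11 with no filter on low counts and 0 to 1 as each old library was left out, the 1 (Loxl2) without old control 2. Genes at an unadjusted p of 0.05 or less numbered 380 in the main analysis, 2149 with quality weights, 719 with no filter, 149 to 1126 over the 6 leave-one-out fits and 79 with old control 1 and old het 1 both left out; genes whose groups do not overlap numbered 1181, 1878 to 4475 and 3085, the last counts being raised by having fewer libraries to separate. A group of 2 borrows its spread from the other groups, so its libraries are assumed to vary like theirs. No paired analysis was possible because the titles of the old controls and old hets share no number. Depth limits genes under 10 CPM, where the median interval reaches 6.15-fold in either direction.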
